A study of Mus musculus with 24 samples.

Results

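The 10 core circadian clock genes were read in quadriceps femoris muscle of 24 mice: the positive limb Arntl (which encodes BMAL1), Clock and Npas2, the PER and CRY repressors Per1, Per2, Per3, Cry1 and Cry2, and the REV-ERB repressors Nr1d1 and Nr1d2. They were picked by name from the 18669 genes of the count table, with earlier results of these data known, and all 10 were tested. Wild type mice, R6/2 mice and Hsf1-/- mice (strain label CBA x C57BL/6 F1) were each given 1 of 4 treatments, 2 mice a group. R6/2 mice carry a transgene of exon 1 of the human huntingtin gene with an expanded repeat and are a model of Huntington's disease, and Hsf1-/- mice lack the heat shock transcription factor HSF1. In the HS experiment the anaesthetised mouse was wrapped in a heating pad and its core kept at 41.5 °C for 15 min, while that of its controls was held at 36.9 °C over 21 min, likewise under isoflurane. In the HSP990 experiment an HSP90 inhibitor was given by gavage at 12 mg/kg, and vehicle mice received saline. Muscle was taken 4 h after treatment. Wild type and R6/2 mice were 12 weeks old, while Hsf1-/- mice were 10 weeks old in the HS experiment and 8 weeks old in the HSP990 experiment. Both treatments were given in the morning according to the study's methods. The hour at which each mouse was sampled is not given in the sources used here.

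The clock is a transcriptional loop that runs in most cells, muscle fibres included. BMAL1 pairs with CLOCK or NPAS2, binds E-box sequences and activates the Per, Cry and Nr1d genes. The PER and CRY proteins then enter the nucleus and inhibit that pair, while the REV-ERB proteins bind elements shared with the ROR activators and repress Arntl, so that the positive limb and the REV-ERB genes peak at different hours of the day. In peripheral tissue Per1 is also a rapidly induced gene, a target of the glucocorticoid receptor and of CREB, and Per2 is known to respond to body temperature.

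The libraries held 22450177 to 46599238 counts, so counting error was small for 9 of the genes and large for Npas2, which had 7 to 73 counts per library. Levels are given as CPM, counts in every 1000000 of the TMM-scaled library size, which corrects for libraries in which a few genes take a large share of reads. Levels were 0 to 4 summed counts for 4 Y-linked genes in wild type and R6/2 mice of the HS experiment and 3916 to 9392 in all other mice. R6/2 and wild type mice were therefore alike in these genes within each experiment. Y-linked transcripts mark male mice. In R6/2 and wild type mice, control against vehicle and HS against HSP990 cannot be told apart from a difference in these transcripts. The same holds for Hsf1-/- against wild type in the HS experiment. Hsf1-/- against wild type cannot be told apart from age, nor can control against vehicle or HS against HSP990 within Hsf1-/- mice. Hsf1 itself was 21.1 to 29.0 CPM in Hsf1-/- mice and 52.9 to 68.6 CPM in wild type mice. Of the heat shock genes used to check the treatments, Hspa1a rose by 7.11 on the log2 scale after HS and 7.0 after HSP990 in wild type mice. The summed level of 8 muscle fibre markers (Ckm, Acta1, Myh4 and others) was 178700 to 227700 CPM in wild type and 35620 to 79220 CPM in R6/2 mice.

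To compare genes, levels were divided by the merged length of all annotated exons of a gene, and their order holds for this length only. Per length of exon, Nr1d1 was the most abundant of the 10 transcripts, with a median over the 24 mice of 65.3 CPM per kb, and it was above Per1, with 17.6 CPM per kb, in 21 of the 24 mice. Nr1d2 followed with 12.3, Per2 with 10.5, Per3 with 9.33, Cry1 with 8.77, Cry2 with 5.85, Arntl with 5.61 and Clock with 4.99 CPM per kb. Npas2, the CLOCK paralogue, lay far below at 0.205 CPM per kb and under Clock in all 24 mice. The other neighbours in this order exchanged places in part of the mice: Nr1d2 was above Per2 in 14 of 24, Per3 above Cry1 in 14 and Cry2 above Arntl in 13, so the levels of these 3 pairs did not differ beyond their spread. Cry1 was above Cry2 in 23 of 24 mice. Over all mice, Nr1d1 varied 8.0-fold in CPM between the lowest and the highest mouse, Per1 6.59-fold, Npas2 5.81-fold and Arntl 4.29-fold, and the other 6 genes between 1.95-fold (Clock) and 2.58-fold (Nr1d2). In the plot of levels by mouse, Nr1d1 separates R6/2 from wild type mice and Per1 separates HS from control mice. Per1 does not separate HS mice from vehicle mice, which ran from 61.2 to 224 CPM.

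**Figure D1:**
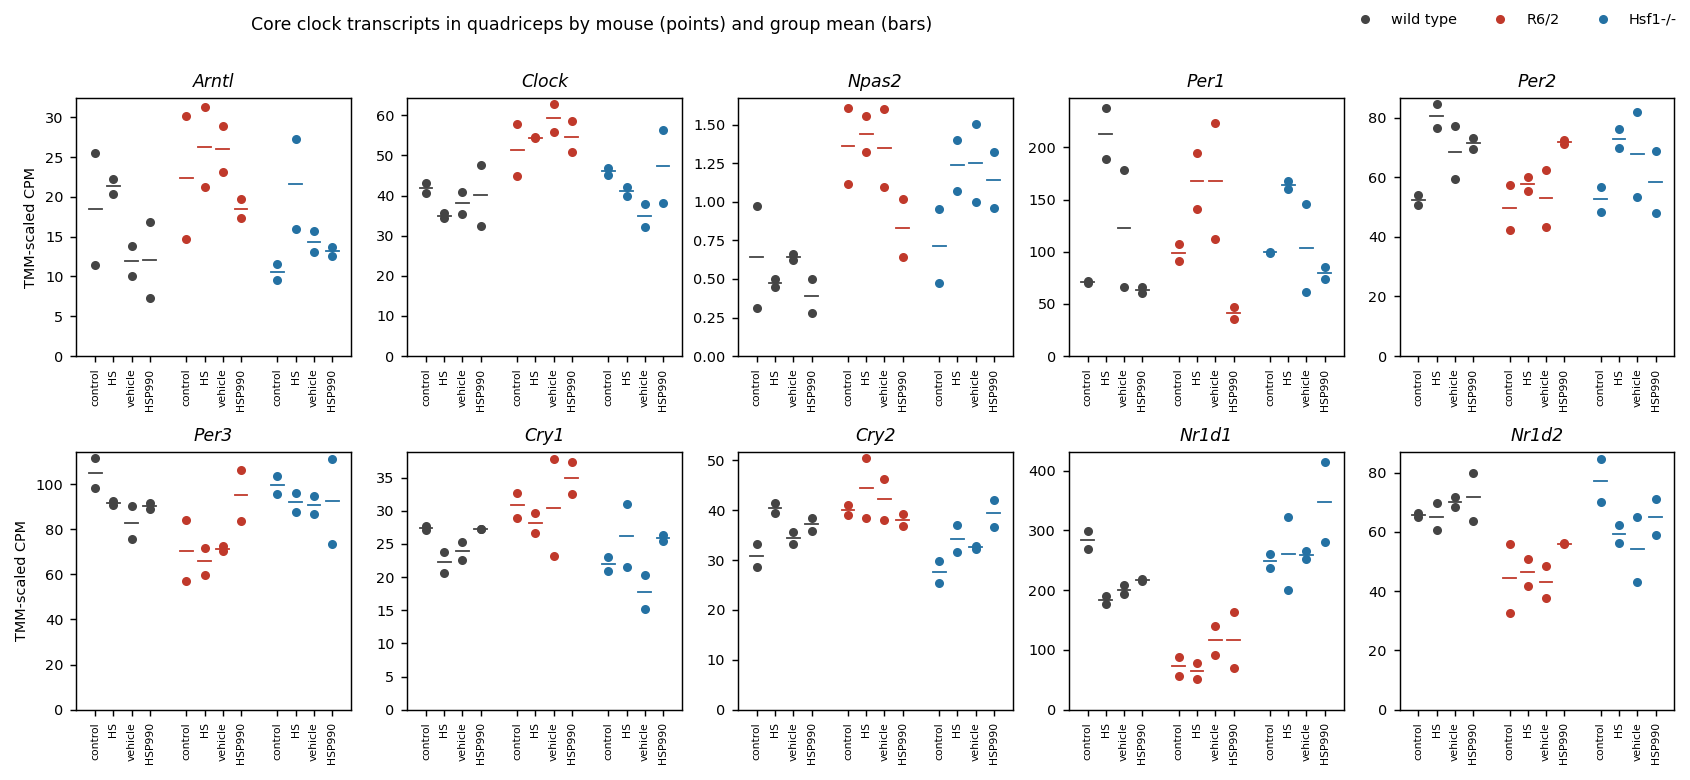
TMM-scaled CPM (vertical axis, from 0) of each clock gene in the 24 mice, by genotype (colour) and treatment (horizontal axis). Points are mice and bars the means of the 2 mice of a group. Nr1d1 ran from 51.7 to 163 CPM in R6/2 mice and from 177 to 300 CPM in wild type mice, and Per1 was 141 to 237 CPM in all HS mice and 70.2 to 107 CPM in all control mice.

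The 5 promoters below are a selection from the clock genes, and each holds some of the letters marked. Each is the 250 bases upstream of a RefSeq transcription start (build GRCm38.p6, while the counts were made on mm9), written 5′ to 3′ on the strand of the gene. The capitals mark letters found on either strand: the E-box CACGTG, its variant CACGTT (the E′-box), the D-box TTATGTAA, to which the clock output factors DBP, TEF and HLF and the repressor NFIL3 bind, the core AGGTCA of REV-ERB and ROR elements, and TGACG, the shorter form of the CREB element. Of 32851 promoters of this length, 6.02% held the E-box, 3.85% the E′-box, 0.819% this D-box, 14.0% AGGTCA and 17.8% TGACG.
Per1, chr11:69098699-69098948, plus strand: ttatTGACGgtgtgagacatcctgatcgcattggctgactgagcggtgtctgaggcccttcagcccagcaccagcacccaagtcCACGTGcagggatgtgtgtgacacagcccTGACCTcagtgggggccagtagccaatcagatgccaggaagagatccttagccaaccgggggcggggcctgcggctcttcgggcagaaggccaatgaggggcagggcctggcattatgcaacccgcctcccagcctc
Per3, chr4:151044666-151044915, minus strand: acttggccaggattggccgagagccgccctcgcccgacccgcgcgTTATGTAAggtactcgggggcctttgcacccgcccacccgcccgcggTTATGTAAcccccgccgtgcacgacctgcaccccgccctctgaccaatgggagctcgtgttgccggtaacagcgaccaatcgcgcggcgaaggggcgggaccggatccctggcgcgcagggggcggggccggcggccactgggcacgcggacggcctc
Cry1, chr10:85185055-85185304, minus strand: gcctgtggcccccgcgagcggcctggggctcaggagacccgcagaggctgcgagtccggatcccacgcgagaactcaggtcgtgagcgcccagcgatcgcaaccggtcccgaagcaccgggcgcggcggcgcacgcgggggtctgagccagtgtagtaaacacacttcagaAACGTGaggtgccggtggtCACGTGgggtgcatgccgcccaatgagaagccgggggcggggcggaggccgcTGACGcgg
Nr1d1, chr11:98775378-98775627, minus strand: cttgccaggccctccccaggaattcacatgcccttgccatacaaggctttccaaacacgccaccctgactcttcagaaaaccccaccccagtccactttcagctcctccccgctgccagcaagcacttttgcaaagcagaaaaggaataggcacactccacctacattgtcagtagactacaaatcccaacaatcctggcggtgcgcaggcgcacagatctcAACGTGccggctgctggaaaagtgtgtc
Nr1d2, chr14:18239107-18239356, minus strand: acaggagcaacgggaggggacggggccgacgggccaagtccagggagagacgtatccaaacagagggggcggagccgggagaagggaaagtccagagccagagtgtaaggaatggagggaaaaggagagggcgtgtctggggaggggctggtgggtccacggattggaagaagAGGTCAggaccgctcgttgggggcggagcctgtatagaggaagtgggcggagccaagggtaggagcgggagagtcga

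The Per1 window is that of the first of 2 listed starts and holds an E-box 161 to 166 bases, the AGGTCA letters 132 to 137 bases and TGACG 242 to 246 bases before it. The window of the second Per1 start holds TGACG alone of these letters, 128 to 132 bases before that start. Per3 has the D-box letters at 2 places, 151 to 158 and 198 to 205 bases before the start. Cry1 has an E-box, an E′-box and TGACG, and Cry2, not printed, an E′-box and TGACG. Nr1d1 has an E′-box 23 to 28 bases before its start, and Nr1d2 has AGGTCA 72 to 77 bases before it. The full CREB element TGACGTCA and the heat shock elements GAANNTTC and TTCNNGAA, in which N is any base, were found in none of the windows of the 9 genes with an entry. Of the genes not printed, Arntl, with 2 listed starts, and Npas2, with 1, held none of the marked letters. Clock held AGGTCA at the last of its 3 listed starts, 114 to 119 bases before it. These are matches of letters in a short window and say nothing about binding.

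Untreated R6/2 mice were compared with untreated wild type mice first, control and vehicle mice weighted equally. The REV-ERB genes were lower in R6/2 muscle, Nr1d1 to 0.384-fold and Nr1d2 to 0.644-fold of wild type, and the positive-limb genes Clock and Npas2 were higher, 1.38-fold and 2.09-fold. Of the PER and CRY genes, Per3 was lower and Cry2 higher, each by less than 1.4-fold. In all, 3 of the 10 genes passed the threshold of an adjusted p below 0.05 upwards and 3 downwards, against 30.5% of the 13754 genes tested (15.1% upwards and 15.4% downwards), so the share of clock genes called was above that of all genes but was not tested against it. At an unadjusted p below 0.05 there were 7 clock genes (40.5% of all genes), and DESeq2 called 7, with Arntl added. The median of all genes was 0.05 on the log2 scale. Below, untreated mice of both genotypes are said not to overlap for 5 of the 10 clock genes and for Dbp. The share of all genes that separate 4 mice from 4, or 2 from 2 within a treatment, was not computed. Such separation is therefore given as a description and not read as a trait of the clock genes.

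Nr1d1 (gene identifier 217166, mm9 chromosome 11, 98629246 to 98636647, minus strand), which encodes REV-ERB alpha, was 300 and 268 CPM in the wild type control mice and 208 and 193 CPM in the wild type vehicle mice. The R6/2 control mice had 56.2 and 88.6 CPM and the R6/2 vehicle mice 91.8 and 141 CPM. All 4 untreated R6/2 mice were thus below all 4 untreated wild type mice. The log2 difference was -1.38 (SE 0.24, adjusted p = 0.00036, edgeR's quasi-likelihood test). In controls alone it was -1.97 (SE 0.34, adjusted p = 0.0018; 12.4% of all genes were called), and in vehicle mice alone -0.79 (SE 0.33, adjusted p = 0.11; 19.2%). The vehicle difference minus the control difference was 1.19 (95% interval 0.19 to 2.18, unadjusted p = 0.022), which did not pass the adjustment over all genes (adjusted p = 0.89; 0% of all genes were called). In vehicle mice the called clock genes were Clock (0.64, adjusted p = 0.025) and Nr1d2 (-0.70, adjusted p = 0.038), and neither was called when any of the 4 mice was left out (0.052 to 0.23). The treated mice showed the same order: after HS 77.5 and 51.7 CPM in R6/2 against 177 and 190 CPM in wild type mice, and after HSP990 163 and 70.3 CPM against 219 and 215 CPM. Over the 4 treatments the R6/2 difference was -1.29 (SE 0.17, adjusted p = 1.3e-05), and all 8 R6/2 mice were below all 8 wild type mice, which was so for 4.91% of all genes. The call held without each mouse for the untreated and for the averaged comparison, and was lost in controls alone without R6/2 control replicate 1 (adjusted p = 0.053). Exons of Nr1d1 overlap those of Thra on the opposite strand over 263 bases, and whether reads were counted by strand is not stated. Thra differed by 0.06 between the untreated genotypes (adjusted p = 0.77).

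Nr1d2 (gene identifier 353187, mm9 chromosome 14, 19036568 to 19071641, minus strand), which encodes the paralogue REV-ERB beta, was 66.2 and 65.1 CPM in wild type control and 71.9 and 68.4 CPM in wild type vehicle mice. It was 32.8 and 55.9 CPM in R6/2 control and 48.4 and 37.8 CPM in R6/2 vehicle mice, so that these groups did not overlap either. The log2 difference was -0.64 (SE 0.16, adjusted p = 0.0064). Over the 4 treatments it was -0.53 (SE 0.11, adjusted p = 0.0012). All 8 R6/2 mice, at 32.8 to 56.4 CPM, lay below all 8 wild type mice, at 60.7 to 80.0 CPM. Both calls held without each mouse, but not when libraries were scaled to their totals alone (below).

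Clock (gene identifier 12753, mm9 chromosome 5, 76639992 to 76733817, minus strand), which encodes a partner of BMAL1, was 43.3 and 40.5 CPM in wild type control, 40.8 and 35.5 CPM in wild type vehicle, 57.7 and 44.9 CPM in R6/2 control and 55.8 and 62.8 CPM in R6/2 vehicle mice. The lowest untreated R6/2 mouse was above the highest untreated wild type mouse. The log2 difference was 0.46 (SE 0.13, adjusted p = 0.014), and 0.50 over the 4 treatments (SE 0.09, adjusted p = 0.00036), where the R6/2 mice were above the wild type mice of each treatment. Npas2 (gene identifier 18143, mm9 chromosome 1, 39250576 to 39420079, plus strand) had 1.61 and 1.11 CPM in R6/2 control and 1.1 and 1.6 CPM in R6/2 vehicle mice, against 0.315 and 0.970 CPM in wild type control and 0.662 and 0.620 CPM in wild type vehicle mice. Its log2 difference was 1.06 (SE 0.35, adjusted p = 0.029) and 1.22 over the 4 treatments (SE 0.25, adjusted p = 0.00099), again with no overlap within a treatment, at counts that were few. Over all treatments Npas2 was 0.646 to 1.61 CPM in R6/2 and 0.473 to 1.51 CPM in Hsf1-/- mice, so these genotypes overlapped. For Arntl (gene identifier 11865, mm9 chromosome 7, 120350979 to 120457636, plus strand) the untreated difference was 0.70 (SE 0.29, adjusted p = 0.075). Its 2 mice of a group lay far apart, 11.4 and 25.5 CPM in wild type control and 30.2 and 14.7 CPM in R6/2 control mice, and the untreated genotypes overlapped. Over the 4 treatments the Arntl difference was 0.58 (SE 0.20, adjusted p = 0.030). Without R6/2 control replicate 1 the untreated Clock call was lost (adjusted p = 0.076), as it was without wild type vehicle replicate 2 (0.058), and Npas2 was not called without R6/2 control replicate 1, wild type control replicate 1, R6/2 vehicle replicate 2 or either wild type vehicle mouse (0.068 to 0.12), while over the 4 treatments the calls of Clock and Npas2 held without each of the 16 mice.

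Among the repressors that act on the BMAL1 complex, Per3 (gene identifier 18628, mm9 chromosome 4, 150377761 to 150418774, minus strand) was 57.0 and 83.9 CPM in R6/2 control and 72.4 and 70.2 CPM in R6/2 vehicle mice, against 112 and 98.2 CPM and 75.5 and 90.3 CPM in the wild type mice. These groups overlapped by 1 mouse, and the log2 difference was -0.40 (SE 0.14, adjusted p = 0.035). Cry2 (gene identifier 12953, mm9 chromosome 2, 92243803 to 92274200, minus strand), a repressor of the complex, was 41.0 and 39.0 CPM and 38.1 and 46.2 CPM in the R6/2 mice against 28.6 and 33.2 CPM and 35.6 and 33.2 CPM in the wild type mice, a difference of 0.33 (SE 0.10, adjusted p = 0.021) with no overlap. Cry1 (gene identifier 12952, mm9 chromosome 10, 84594447 to 84647799, minus strand) differed by 0.26 (SE 0.14, adjusted p = 0.19) and Per2 (gene identifier 18627, mm9 chromosome 1, 93312561 to 93355907, minus strand) by -0.22 (SE 0.15, adjusted p = 0.30). Per1 (gene identifier 18626, mm9 chromosome 11, 68908719 to 68923462, plus strand) was 107 and 91.0 CPM in R6/2 control mice and 71.5 and 70.2 CPM in wild type control mice, but ranged from 66.4 to 224 CPM among the vehicle mice, and its difference was 0.47 (SE 0.28, 95% interval -0.12 to 1.07, adjusted p = 0.22). Averaged over the 4 treatments, 5 clock genes were called higher in R6/2 mice (Arntl, Clock, Npas2, Cry1 and Cry2) and 3 lower (Per3, Nr1d1 and Nr1d2), against 40.9% of all genes (21.1% upwards and 19.8% downwards). Per1, at -0.0013 (SE 0.20, adjusted p = 1), and Per2, at -0.23 (SE 0.11, adjusted p = 0.11), were the 2 that were not called. The untreated Cry2 call was lost without R6/2 control replicate 1, wild type control replicate 1, R6/2 vehicle replicate 2 or wild type vehicle replicate 2 (adjusted p of 0.065 to 0.097), and that of Per3 without these or R6/2 vehicle replicate 1 (0.07 to 0.17). Leaving out R6/2 control replicate 1 left 2 untreated calls, Nr1d1 and Nr1d2, and without wild type control replicate 1 or wild type vehicle replicate 2 there were 3.

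**Figure D2:**
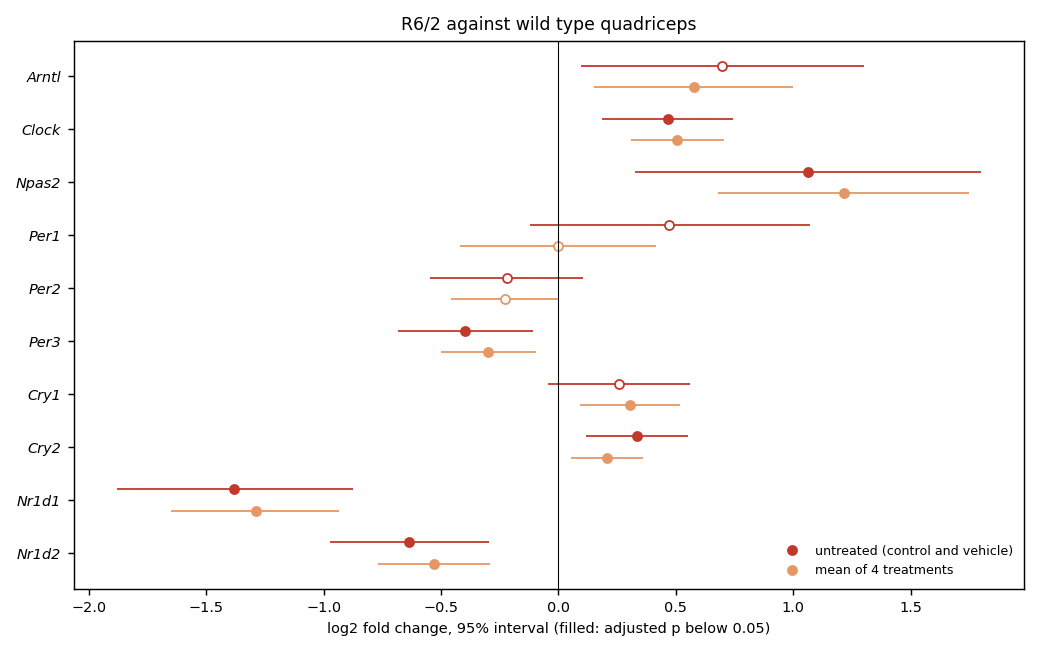
Log2 fold change of R6/2 against wild type for each clock gene (horizontal axis, with the 95% interval), for untreated mice and for the mean of the 4 treatments. Filled points have an adjusted p below 0.05. Nr1d1 lies at -1.38 and -1.29, Nr1d2 at -0.64 and -0.53, and Npas2 at 1.06 and 1.22.

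The R6/2 differences depend on how libraries are scaled. In R6/2 libraries the 20 most abundant genes took 14.7 to 21.9% of counts, against 32.7 to 40.1% in the others, and the 8 fibre markers were all called lower in untreated R6/2 mice (median log2 difference -1.95). The summed level of 4 adipocyte markers was 26.6 to 78.2 CPM in R6/2 and 29.0 to 355 CPM in wild type mice, with a median log2 difference of -1.83 in untreated mice (2 of 4 called lower, and 4 of 4 over the 4 treatments). The satellite cell markers Pax7 and Myf5 summed to 7.21 to 11.6 CPM in R6/2 and 4.18 to 7.53 CPM in wild type mice (median 0.63 in untreated mice, 1 called higher, and 2 over the 4 treatments). Of 4 fibroblast markers 1 was called higher, the 1 erythroid marker tested was called lower over the 4 treatments, and of the endothelial, leukocyte and Schwann cell markers 0 were called in either comparison. The part of these cell types in the clock gene differences was not tested, and in whole muscle fewer fibres and less RNA per fibre cannot be told apart. Scaling to library totals alone raised the median difference of all genes from 0.05 to 0.66 and gave 7 clock genes higher (Arntl, Clock, Npas2, Per1, Per2, Cry1 and Cry2) and 1 lower (Nr1d1) in untreated R6/2 mice. Nr1d1 was still lower on that scale, by 0.78 (adjusted p = 0.0052), whereas Per3 turned to 0.21 and Nr1d2 to -0.03. Relative to the median of all genes, a measure that scaling leaves nearly fixed by construction, the difference was -1.43 for Nr1d1, -0.69 for Nr1d2 and 0.41 for Clock. The ratio of Nr1d1 to Clock counts within a mouse needs no scaling. It was 0.947 to 3.21 in R6/2 mice, 4.60 to 6.93 in wild type mice and 4.99 to 10.8 in Hsf1-/- mice. The R6/2 mice did not overlap the other genotypes in this ratio, which pairs a gene called lower with one called higher. They overlapped wild type mice in the ratio of Nr1d1 to Arntl (1.66 to 9.43 against 7.94 to 30.1) and of Per3 to Clock (0.986 to 2.09 against 1.85 to 2.82).

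**Figure D3:**
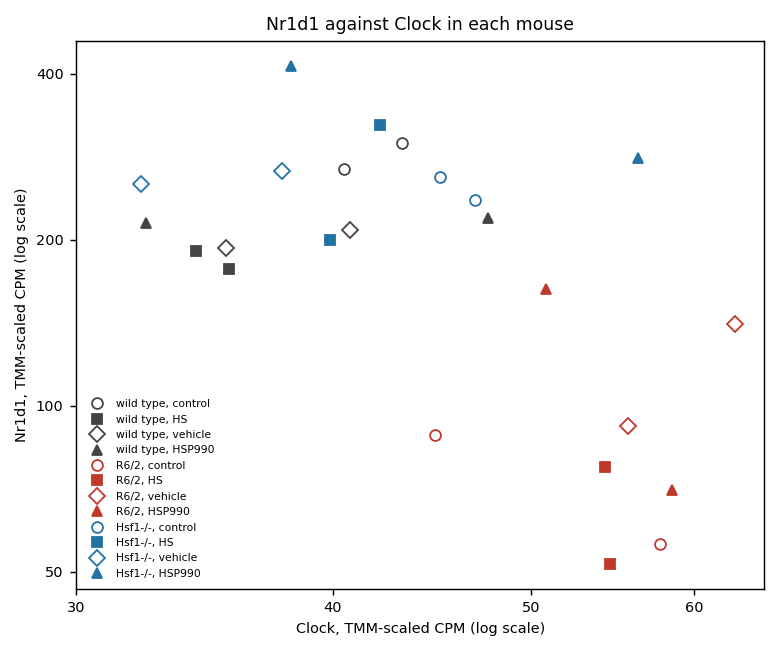
Nr1d1 against Clock in each of the 24 mice, TMM-scaled CPM on log axes, with genotype as colour and treatment as symbol. The 8 R6/2 mice lie at the lower right, with 0.947 to 3.21 Nr1d1 counts per Clock count.

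Genes next to the loop were read from lists of clock partners (15 genes) and of clock outputs (7 genes). Of the partners, 4 were lower in untreated R6/2 mice: Bhlhe41 by a log2 difference of -1.80 (adjusted p = 1.9e-05) and Bhlhe40 by -1.33 (adjusted p = 3.5e-05), which encode the repressors DEC2 and DEC1, Ciart, which encodes the repressor CHRONO, by -1.43 (adjusted p = 0.013), and Rora, which encodes an activator of Arntl, by -1.42 (adjusted p = 3.2e-05). The partners Csnk1d, a kinase of PER proteins, and Btrc, a part of the ubiquitin ligase that marks them, were higher by 0.29 and 0.36 and were named after their values had been seen. These 6 of 15 genes stand beside 30.5% of all genes called, and the median of the 15 was -0.01. Of the 7 outputs, 4 were lower and none was higher, beside 15.4% lower and 15.1% higher of all genes: Dbp by -1.86 (adjusted p = 0.00014) and Hlf by -0.82 (adjusted p = 0.0011), a pair of D-box activators, Usp2, which encodes a deubiquitinase, by -0.74 (adjusted p = 3e-04), and Nampt, which encodes an enzyme of NAD synthesis, by -0.47 (adjusted p = 0.028). Dbp was 140, 82.1, 111 and 102 CPM in the untreated wild type mice and 15.2, 55.1, 24.2 and 26.9 CPM in the untreated R6/2 mice. These groups did not overlap, and R6/2 control replicate 1, the mouse with the least Dbp, also had the least Nr1d1, Nr1d2 and Per3 of the untreated mice.

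The HS comparison asked which clock genes respond to a rise in body temperature and whether HSF1 is needed. Per1, a rapidly induced member of the PER family, was higher in HS mice of every genotype. In wild type mice it was 71.5 and 70.2 CPM in control and 189 and 237 CPM in HS mice. R6/2 mice had 107 and 91.0 CPM in control and 194 and 141 CPM after HS, and Hsf1-/- mice 98.7 and 100 CPM in control and 168 and 160 CPM after HS. All 6 HS mice were above all 6 control mice, which was so for 1.56% of all genes. Vehicle mice of the other experiment, at 61.2 to 224 CPM, overlapped the HS mice. Averaged over the genotypes the log2 fold change was 1.02 (SE 0.23, adjusted p = 0.013, a 2.03-fold rise; 6.14% of all genes were called), and this call held without each of the 12 mice.

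Within single genotypes the rise of Per1 did not pass the threshold. It was 1.59 in wild type mice (SE 0.41, adjusted p = 0.054), 0.76 in R6/2 mice (SE 0.40, adjusted p = 0.65) and 0.72 in Hsf1-/- mice (SE 0.40, adjusted p = 0.67). DESeq2 called it in wild type mice (adjusted p = 0.0015), as did a fit of the wild type groups alone (0.00038). With such a fit Per1 was also called in Hsf1-/- mice (adjusted p = 0.032). The response of R6/2 mice minus that of wild type mice was -0.83 (95% interval -2.02 to 0.36, adjusted p = 0.99) and that of Hsf1-/- mice minus wild type mice -0.86 (95% interval -2.05 to 0.33, adjusted p = 1).

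No clock gene was called by edgeR in any single genotype, where 2.06% of all genes were called in wild type, 0.0436% in R6/2 and 0.00727% in Hsf1-/- mice. At an unadjusted p below 0.05 there were 3 (Per1, Per2 and Cry2) in wild type (11.8% of all genes), 0 in R6/2 (8.12%) and 2 (Arntl and Per2) in Hsf1-/- mice (8.8%), and DESeq2 called Per1 in wild type mice and 0 in the other genotypes. Per2, which is known to respond to temperature, was 54.1 and 50.6 CPM in wild type control mice and 76.6 and 84.5 CPM after HS. In Hsf1-/- mice it went from 56.7 and 48.4 CPM to 76.0 and 69.7 CPM, and in R6/2 mice from 42.2 and 57.4 CPM to 60.1 and 55.4 CPM. The wild type and Hsf1-/- groups did not overlap and the R6/2 groups did. With 2 mice a group, 7 of the 10 clock genes did not overlap in wild type, 7 in Hsf1-/- and 1 in R6/2 mice. The share of all genes was not computed, so these counts are a description and are not read as a difference between the genotypes. The Per2 response of R6/2 mice minus that of wild type mice was -0.41 (edgeR, adjusted p = 0.99), so these genotypes were not shown to differ. The average log2 fold change of Per2 was 0.44 (SE 0.13, adjusted p = 0.051) and that of Cry2 0.28 (SE 0.08, adjusted p = 0.056), and DESeq2 called both. Nr1d1 went from 300 and 268 CPM to 177 and 190 CPM in wild type mice, a log2 fold change of -0.63 (SE 0.33, adjusted p = 0.51). Its change was -0.16 in R6/2 and 0.07 in Hsf1-/- mice. These responses minus that of wild type mice were 0.47 and 0.70, and neither was called, so the genotypes were not shown to differ. Arntl had its largest value in Hsf1-/- mice, from 11.6 and 9.55 CPM to 27.3 and 16.0 CPM (1.03, SE 0.41, adjusted p = 0.44). Clock, Per3, Cry1 and Nr1d2 averaged between -0.14 (Per3) and -0.06 (Cry1) with adjusted p of at least 0.57, and Npas2 averaged 0.13 (SE 0.29).

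Per1 was lower after HSP990. In R6/2 mice it was 112 and 224 CPM with vehicle and 47.4 and 36.0 CPM with HSP990, a log2 fold change of -2.01 (SE 0.41, adjusted p = 0.019; 1.43% of all genes were called). In wild type mice it was 66.4 and 178 CPM with vehicle and 60.5 and 66.2 CPM with HSP990 (-0.95, SE 0.40, adjusted p = 0.31), and in Hsf1-/- mice 146 and 61.2 CPM and 85.8 and 73.4 CPM (-0.38, SE 0.40, adjusted p = 0.83). The R6/2 groups lay apart, the wild type groups were separated by less than 1 CPM, and the Hsf1-/- groups overlapped. Averaged over the genotypes the log2 fold change was -1.11 (SE 0.23, adjusted p = 0.0091; 4.65% of all genes were called) and was called without each of the 12 mice. The vehicle mice were uneven, with 1 high and 1 low mouse in each genotype, and a fit of only the groups compared, in which the spread is not shared with the other mice, called neither the R6/2 fall (adjusted p = 0.14) nor the average (0.075). The R6/2 call was also lost without R6/2 vehicle replicate 2 (adjusted p = 0.26) and without either R6/2 HSP990 mouse (0.12 without replicate 1 and 0.18 without replicate 2).

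No other clock gene was called after HSP990. In wild type mice (1.85% of all genes called) and Hsf1-/- mice (0.218%) edgeR and DESeq2 called 0 clock genes. An unadjusted p below 0.05 was found for 1 in wild type, Per1 itself (13.2% of all genes), and for 2 in Hsf1-/- mice, Cry1 and Clock (9.48%). In R6/2 mice Per3 changed by 0.41 (SE 0.19, adjusted p = 0.51) and Per2 by 0.44 (SE 0.22, adjusted p = 0.56) in edgeR's test. Cry1 was 15.2 and 20.3 CPM in Hsf1-/- vehicle and 25.4 and 26.3 CPM in Hsf1-/- HSP990 mice (0.54, SE 0.21, adjusted p = 0.40), and averaged 0.31 over the genotypes (SE 0.12, adjusted p = 0.17). Clock in Hsf1-/- mice went from 37.8 and 32.3 CPM to 56.4 and 38.2 CPM (0.44, SE 0.19, adjusted p = 0.47). Nr1d1, at 0.11, 0.0047 and 0.42 in wild type, R6/2 and Hsf1-/- mice, and Nr1d2, at 0.03, 0.38 and 0.27, were not called in any genotype. The HSP990 response of Per1 in R6/2 mice minus that in wild type mice was -1.06 (95% interval -2.26 to 0.13, adjusted p = 0.75), so the genotypes were not shown to differ. Of the 4 tests of genotype against treatment, none called any clock gene with edgeR or DESeq2, and 0 had an unadjusted p below 0.05, while of all genes 0.0727% and 0.16% were called for HS (R6/2 and Hsf1-/- against wild type) and 0% and 0.422% for HSP990.

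**Figure D4:**
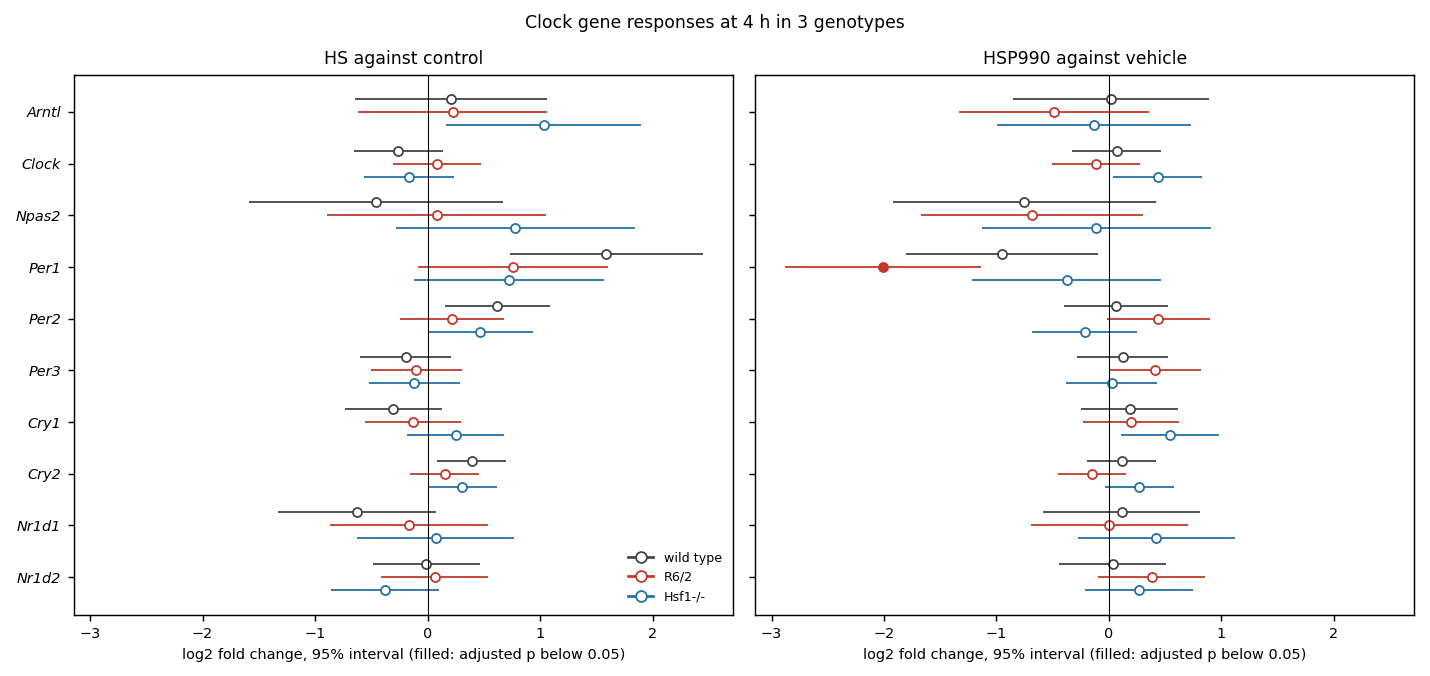
Log2 fold change (horizontal axis, 95% interval) of the 10 clock genes after HS against control (left) and after HSP990 against vehicle (right) in the 3 genotypes. The single filled point, with an adjusted p below 0.05, is Per1 after HSP990 in R6/2 mice at -2.01, while Per1 after HS lies at 1.59, 0.76 and 0.72.

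By edgeR, Per1 was the 1 clock gene called for a difference between its responses to the 2 treatments, in wild type and R6/2 mice. The HS response minus the HSP990 response was 2.54 in wild type mice (SE 0.57, adjusted p = 0.024; 2.38% of all genes were called), 2.77 in R6/2 mice (SE 0.57, adjusted p = 0.016; 1.63%) and 1.1 in Hsf1-/- mice (SE 0.56, adjusted p = 0.51; 0.145%). These responses rest on different experiments, with the uneven vehicle mice in the second. A fit of only the groups compared called 2 clock genes in wild type and 0 in R6/2 mice. The wild type call was lost on leaving out any of the 8 mice other than vehicle replicate 1 (adjusted p up to 0.19), and that of R6/2 mice without control replicate 2, HS replicate 1, vehicle replicate 2 or HSP990 replicate 2 (up to 0.12). Vehicle against control mice gave no called clock gene with edgeR or DESeq2 in any genotype, and 0 in wild type, 0 in R6/2 and 1 in Hsf1-/- mice (7.02% of all genes) at an unadjusted p below 0.05. Of all genes, 0.24% were called in wild type, 0.0654% in R6/2 and 0% in Hsf1-/- mice.

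Per1 was set beside 10 genes known to respond to glucocorticoids and 10 early genes linked to CREB and SRF, 8 of which could be tested. After HS the glucocorticoid-responsive genes were all above 0 in the average over genotypes (median log2 fold change 1.20, all genes -0.01), with 8 called higher (6.14% of all genes were called). Among them were Mt2 (3.91, adjusted p = 0.00044), which encodes a metallothionein, Ddit4 (3.57, adjusted p = 0.00044), an inhibitor of mTORC1 signalling, Cdkn1a (1.82, adjusted p = 0.0025), which encodes p21, and Fam107a (1.56, adjusted p = 0.0023). After HSP990 all 10 were below 0 (median -1.16, all genes 0.01) and 9 were called lower (4.65% of all genes were called), Mt2 by -3.40, Ddit4 by -2.81, Fkbp5, a co-chaperone of steroid receptors, by -2.79 and Fam107a by -2.61 (adjusted p between 3.7e-05 and 0.003). In the vehicle pairs of wild type and R6/2 mice, 9 of these 10 genes were higher in the mouse that had more Per1 (50.4% and 53.0% of all genes were), and in the Hsf1-/- pair 5 of 10 (48.0%). A pair of mice can differ in many genes at once, and nothing particular to this list is read from these counts. Whether glucocorticoids bear on Per1 here was not tested. Of the early genes, 4 were called higher after HS in the average: Nr4a3 (2.97), Ppargc1a (2.07), Sik1 (1.97) and Nr4a1 (1.23), with adjusted p from 7.2e-05 to 0.0019. After HSP990 only Nr4a2 was called, at 1.68 (adjusted p = 0.015). Of the clock outputs, Nfil3, a D-box repressor (1.59, adjusted p = 0.00090), Usp2 (0.63, adjusted p = 0.0013) and Wee1, a cell cycle kinase (0.47, adjusted p = 0.0097), rose after HS, and Usp2 fell by 0.59 after HSP990 (adjusted p = 0.0020). Of the 15 partners, 0 were called by edgeR after HS in the average (6.14% of all genes were called). An unadjusted p below 0.05 was found for 4, and nothing is read from this count, as the share of all genes is not given. DESeq2 was fitted to all genes tested, but its results were kept for the 10 clock genes only. After HSP990 the partner Bhlhe41 rose by 0.78 (adjusted p = 0.016 by edgeR).

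In untreated Hsf1-/- mice no clock gene was called against wild type by edgeR or DESeq2 (0.974% of all genes were called), and 1, Cry1, had an unadjusted p below 0.05 (14.5% of all genes). Cry1 was 23.1 and 21.0 CPM in Hsf1-/- control and 15.2 and 20.3 CPM in Hsf1-/- vehicle mice against 27.8 and 27.1 CPM and 25.2 and 22.6 CPM in wild type mice (-0.37, SE 0.15, adjusted p = 0.25). Nr1d1 was 260 and 237 CPM in Hsf1-/- control and 266 and 253 CPM in Hsf1-/- vehicle mice, a difference from wild type of 0.09 (95% interval -0.41 to 0.58). For Clock the difference was 0.01 (95% interval -0.28 to 0.29), for Per2 -0.0047 (-0.33 to 0.32) and for Per3 0.03 (-0.26 to 0.31). The intervals were wider for Npas2, at 0.55 (-0.22 to 1.32), Per1, at 0.12 (-0.47 to 0.72), and Arntl, at -0.27 (-0.89 to 0.34). For Arntl the difference was -0.80 in control and 0.26 in vehicle mice (adjusted p = 0.31 and 0.91). Averaged over the 4 treatments, Npas2 was the 1 gene called, higher by 1.02 (SE 0.26, adjusted p = 0.025; 7.61% of all genes were called). It was 0.473 to 1.51 CPM in Hsf1-/- and 0.277 to 0.970 CPM in wild type mice. The call was lost on leaving out replicate 1 of any Hsf1-/- group, either wild type HS or vehicle mouse, or wild type HSP990 replicate 2 (9 mice, adjusted p of 0.05 to 0.076).

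The genes whose level followed each clock gene most closely over the 24 mice are given as a description, with Pearson's r of log2(CPM + 0.5) over mice that share 12 groups. For Nr1d1 they were Ccdc88c (0.92), Prss53 (0.912) and Tbc1d10c (0.911), and for Nr1d2 Pdpk1 (0.877), Ctnna3 (0.874) and Klf12 (0.865). For Per1 they were Sema7a (0.93), Slc10a6 (0.928) and S1pr1 (0.914), and for Clock Prkaa1 (0.887), Heca (0.865) and Miga1 (0.863). The closest genes reached 0.687 for Per2 (Slc35a4) and between 0.793 and 0.83 for Arntl (Fxr2), Npas2 (Slc9a2), Per3 (Asb16), Cry1 (Arhgap12) and Cry2 (Spata2). Over the 45 pairs of clock genes, r ran from -0.663 (Arntl and Nr1d2) to 0.742 (Per3 and Nr1d1). The differences between the 2 mice of a group, which hold no genotype or treatment, gave an r of the same sign over the 12 groups for 31 of the 45 pairs. The r over all mice contains these same differences. The replicate numbers, which set the sign of a difference, did not pair the mice, so nothing is read from this count. The r of the differences was 0.675 for Per3 and Nr1d1 and -0.662 for Per3 and Clock (-0.572 over all mice), but -0.0157 for Nr1d1 and Nr1d2 (0.606 over all mice) and 0.584 for Cry2 and Nr1d1 (-0.456 over all mice).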

How the data were processed

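RNA of 24 quadriceps muscles was sequenced as strand-specific, paired 40 bp libraries. The authors mapped the reads to mm9 with Bowtie and deposited raw counts per gene, with no normalization. The program that counted reads, its annotation and its use of strand are not given in the sources used here. Counts are whole numbers, all 24 columns were used, and 18594 of 18669 genes had a symbol. The mice of a group differed by more than counting error (chi-square per degree of freedom 19.4 to 110).

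The 13754 genes that reached 2 counts in 10 or more libraries were scaled with TMM and fitted as 12 groups by quasi-likelihood in edgeR 4.0.16 (R 4.3.3, limma 3.58.1; residual degrees of freedom 12), with Benjamini-Hochberg adjustment over all genes in each of 27 comparisons, at a threshold of 0.05. On simulated data for HS in wild type mice (13754 genes, 200 changed), 89.7% of 4-fold and 48.4% of 2-fold changes were called. DESeq2 1.42.0, other scalings, filters and groups, a replicate block and leaving out each mouse were alternatives. All 10 clock genes are named, besides the 4 called genes with the largest change in each other list, and the 3 genes most alike. The clock genes and lists were chosen with earlier results of these data known. By minimap2, each clock transcript matched 1 place in the genome (within 2% divergence, on 50% or more of its length).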

Additional observations from a re-analysis of the deposited data

How the results depend on the processing

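Counts of clock genes called were recomputed under each alternative. For HS in wild type mice (0 called), RLE size factors, no filter and DESeq2 gave 1 (Per1) and a fit of only the groups compared 3 (Per1, Per2 and Nr1d1). For HS averaged over genotypes (1), no filter and only the groups compared gave 2 and DESeq2 3. Fits of only the groups compared also gave 1 for HS in Hsf1-/- mice and for Hsf1-/- against wild type controls (0 before; Per1 in both), 2 for Hsf1-/- against wild type over the 4 treatments (1) and for HS minus HSP990 in wild type mice (1), and 0 for HSP990 in R6/2 mice, HSP990 averaged and HS minus HSP990 in R6/2 mice (each 1). For R6/2 against wild type controls (1), library totals alone gave 6 and DESeq2 2, and for vehicle mice (2) library totals gave 7. Library totals turned Per3 to 0.21 (untreated) and 0.28 (4 treatments) and Nr1d2 to 0.053 (4 treatments), since they moved the median of all genes to 0.66 and 0.61. In the average over the 4 treatments they gave 8 clock genes higher and 1 lower.

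Leaving out 1 mouse gave 2 to 7 calls for untreated R6/2 against wild type (6), 4 to 8 over the 4 treatments (8), 0 to 3 in controls (1), 0 to 1 in vehicle mice (2), 1 to 2 for each averaged treatment (1), and 0 to 1 for HSP990 in R6/2, HS minus HSP990 in wild type and in R6/2, and Hsf1-/- against wild type over the 4 treatments (1 each). Over the 4 treatments the R6/2 calls of Arntl and Cry2 were each lost without 8 of 16 mice, that of Cry1 without 5 and that of Per3 without 3, and leaving out R6/2 control replicate 1 ended each of these 4 calls (adjusted p of 0.1, 0.059, 0.054 and 0.051). Of 248 refits of called values without 1 mouse, 176 were called and 0 changed sign. Replicate numbers did not pair the mice (median r of same-numbered deviations -0.0197 over 66 pairs of groups, 10 above 0.1), and a replicate block left the counts as they were, for instance 6 for untreated R6/2 against wild type.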
